A study of Mus musculus with 10 samples.

Results

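Two-pore-domain potassium (K2P) channels carry the background, or leak, potassium current that holds the resting membrane potential of neurons and glia near the potassium equilibrium potential. Each subunit contributes a pair of pore loops, a pair of subunits builds one channel, and the family is sorted into subfamilies that differ in what opens or closes them, such as membrane stretch and lipids for TREK and TRAAK channels, external acid for TASK channels, and receptors coupled to Gq for several of them. In thalamic neurons K2P channels are known for setting the potential from which cells fire single spikes or bursts, and in glia they take part in potassium handling. The genes followed here were Kcnk1 (TWIK-1), Kcnk2 (TREK-1), Kcnk10 (TREK-2), Kcnk4 (TRAAK), Kcnk3 (TASK-1), Kcnk9 (TASK-3), Kcnk12 (THIK-2) and Kcnk13 (THIK-1). These 8 members were given as a list of symbols, without the 6 other family members, which are described at the end, and were taken from the 33502 gene symbols of a single-nucleus RNA sequencing series, in which 14 symbols of the Kcnk family were found.

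Nuclei came from fresh tissue punches of the paraventricular thalamus and surrounding regions of C57BL/6J mice aged 12 weeks. No group had a treatment or altered allele. The study's methods describe pooled punches of several mice in each sample, without saying so separately for the female libraries. The study assigned part of its neurons to the mediodorsal and intermediodorsal thalamus, the bed nucleus of the stria terminalis and the habenula. The neuron clusters below are therefore not all of the paraventricular thalamus. Of the 10 libraries, 6 were labelled female, and the labels of the other 4 gave no sex, although the deposited metadata listed all of their nuclei as male (here called male libraries). The table held 20503 nuclei, of which 10410 were neurons, in 8 cell types and 8 neuron clusters named by the authors. The female libraries held 1049 to 1615 nuclei and 5119927 to 12891409 unique molecular identifiers (UMIs, counted molecules), and the male libraries held 875 to 7213 nuclei and 7568267 to 55956635 UMIs. Median UMIs per neuron were 5666 to 9770 in female and 12586 to 21085 in male libraries. The median mitochondrial share was 1.04% to 1.45% in female and 0.123% to 1.30% in male libraries. Sex, deposit and depth therefore went together and cannot be told apart. Whether gene annotation also differed between the sets is not given in the labels. In all, 46 barcode sequences occurred in a pair of libraries. Each of the 37 marker genes checked had its highest level in the cell type it marks. Levels below are UMIs summed per library and class, given as CPM (counts rescaled to the same library total in every sum, with TMM factors). Cell types and neuron clusters were scaled separately, so that their CPM values are on separate scales, and levels are compared across classes within a gene and never between genes. In such sums fewer expressing cells and less RNA per cell cannot be told apart.

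The 8 genes lie apart on the mouse genome (GRCm38, GENCODE vM21) except for Kcnk10 and Kcnk13, which are both on chromosome 12. Kcnk1 spans chr8:125995170-126030685 on the plus strand. Kcnk2 spans chr1:189207930-189402273 on the minus strand. Kcnk10 spans chr12:98429437-98578310 on the minus strand. The others are Kcnk4 at chr19:6923966-6934515 on the minus strand, Kcnk3 at chr5:30588170-30625271 on the plus strand, Kcnk9 at chr15:72501089-72546340 on the minus strand, Kcnk12 at chr17:87745801-87797994 on the minus strand and Kcnk13 at chr12:99964499-100062682 on the plus strand. Each locus is a whole gene with exons and introns. Kcnk4 shares 1415 bases with Catsperz on the same strand, and Kcnk2 and Kcnk10 also overlap short annotated transcripts on both strands. Reads from the same-strand stretches cannot be assigned with certainty. Kcnk1, Kcnk3 and Kcnk13 overlap short annotated transcripts on the opposite strand only.

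The selectivity filter is the stretch of each pore loop that coordinates potassium ions, and it is shown because some of its codons differ between the members. The coding bases around the first filter are shown 5′ to 3′ for all members, from the annotated transcripts, with the last 3 of the 5 filter codons in capitals, and for Kcnk1 the second filter is added because it departs from the others.
Kcnk1, first filter: tccaccacaGGCTATGGCcacacggtg
Kcnk1, second filter: agcaccatcGGCCTGGGGgactatgtt
Kcnk2, first filter: acaaccataGGATTTGGAaacatctcc
Kcnk10, first filter: acaaccataGGGTATGGGaatattgct
Kcnk4, first filter: actaccatcGGCTATGGCaatatagtc
Kcnk3, first filter: accaccatcGGCTATGGTcatgcggcg
Kcnk9, first filter: acaactatcGGATATGGAcatgctgca
Kcnk12, first filter: tcgaccataGGTTTCGGCatgacaaca
Kcnk13, first filter: tctaccataGGGTTTGGGatgacaaca
All 8 members had 2 such filters. The middle one of the capital codons of the first filter was TAT in Kcnk1, Kcnk3, Kcnk4, Kcnk9 and Kcnk10, and TTT or TTC in Kcnk2, Kcnk12 and Kcnk13. In the second filter it was CTG in Kcnk1 and TTC or TTT in the other members. Kcnk12 and Kcnk13, the THIK pair, share the same bases after the first filter.

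The first question was which cell types of the punches, from the paraventricular thalamus and its surroundings, carry which member. The members divided by class of cell. Kcnk1 was led by astrocytes, Kcnk13 by oligodendrocytes and microglia, Kcnk12 by microglia, ependymal cells and neurons, Kcnk10 and Kcnk3 by oligodendrocyte precursor cells (OPCs) and neurons, and Kcnk2 by ependymal cells, OPCs and fibroblasts. Kcnk4 and Kcnk9 were at low levels and highest in neurons. Each type was tested against the mean of the other types on the log2 scale by edgeR's quasi-likelihood test with the library as a block, and a contrast was called at a Benjamini-Hochberg adjusted p below 0.05 and an absolute log2 fold change above 0.5. Of the 8 members 6 passed the filter on low counts, and of their 48 contrasts 16 were called higher (33.3%, against 21.6% of all contrasts tested over all genes) and 17 lower (35.4%, against 20.7%). The median absolute log2 fold change was 1.17 for these contrasts and 0.54 over all genes. Because the authors formed the clusters from the same nuclei with all genes, these tests describe the clusters.

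**Figure D1:**
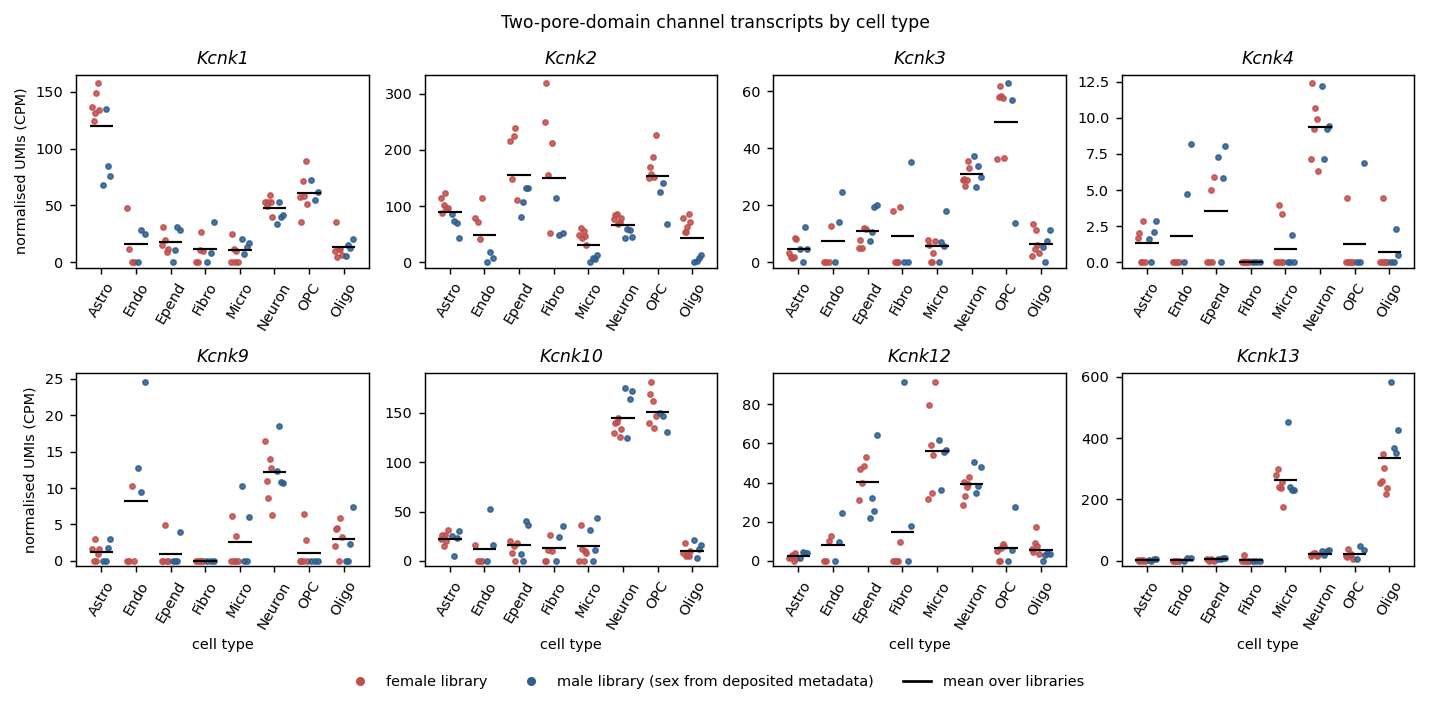
Level of each K2P gene in 8 cell types, in CPM (vertical axis), with 1 point per library, female and male libraries in separate colours, and a bar at the mean. Kcnk13 stood highest in oligodendrocytes and microglia, Kcnk1 in astrocytes, and Kcnk10 and Kcnk3 in OPCs and neurons.

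Kcnk1 (TWIK-1), a weakly inward rectifying leak channel, was highest in astrocytes. Its level there was 67.7 CPM in the lowest library, 132 in the median library and 157 in the highest, from 1455 UMIs. OPCs followed with 35.6, 58.4 and 89.1 CPM, and neurons with 33.2, 51.2 and 58.9 CPM. The astrocyte and OPC ranges overlapped, but astrocytes were above OPCs in 9 of 9 libraries, whereas OPCs and neurons did not differ beyond their spread (log2 difference 0.33 ± 0.20, SE, adjusted p = 0.143 by edgeR). Against the mean of the other types, Kcnk1 was higher in astrocytes by 2.46 ± 0.14 (log2, SE, adjusted p = 4.5e-26, 10 of 10 libraries), in OPCs by 1.37 ± 0.22 and in neurons by 0.98 ± 0.15. It was lower in microglia (-1.27 ± 0.30) and oligodendrocytes (-0.93 ± 0.24). Among nuclei with at most 1% mitochondrial UMIs the calls in neurons (0.46, adjusted p = 0.156) and microglia (-0.89, adjusted p = 0.107) were lost. The lower call in fibroblasts (-1.54 ± 0.57, adjusted p = 0.0399) rested on 6 UMIs and was lost with DESeq2 (adjusted p = 0.102) and without any of several single libraries, among them female replicate 1 (adjusted p = 0.105). The mean in astrocytes was 119 ± 31.5 CPM (SD, n = 10).

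Kcnk2 (TREK-1), a channel opened by stretch, heat and fatty acids, was carried by several non-neuronal types. Ependymal cells held 80.5, 132 and 239 CPM in the lowest, median and highest of 9 libraries, OPCs 68.7, 152 and 227 CPM, and fibroblasts 49.2, 135 and 319 CPM in 8 libraries. These ranges overlapped throughout, and neither ependymal cells (0.16 ± 0.23, adjusted p = 0.591) nor fibroblasts (-0.05 ± 0.31, adjusted p = 0.935) differed from OPCs in edgeR's test. Astrocytes (mean 89.3 ± 23.3 CPM) and neurons (66.6 ± 15.2 CPM) lay in the middle of the order, and astrocytes were above neurons in 9 of 10 libraries. Against the other types Kcnk2 was higher in ependymal cells by 1.30 ± 0.19, in OPCs by 1.11 ± 0.19 and in fibroblasts by 1.06 ± 0.29, and lower in microglia by -1.64 ± 0.26 and oligodendrocytes by -1.10 ± 0.21, each at an adjusted p below the threshold. The lower call in endothelial cells (-0.91 ± 0.38, adjusted p = 0.0448) was lost with DESeq2 (adjusted p = 0.0588) and without most single libraries. The fibroblast call was lost in the 4 male libraries alone (0.90, adjusted p = 0.41). Kcnk2 also differed between the library sets, as described for neurons and oligodendrocytes at the end.

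Kcnk10 (TREK-2), the close relative of Kcnk2, had the highest levels in OPCs and neurons. The level in OPCs was 131, 147 and 181 CPM in the lowest, median and highest of 9 libraries, and in neurons 124, 140 and 175 CPM in 10 libraries. These 2 ranges overlapped almost entirely (OPCs against neurons 0.10 ± 0.18, adjusted p = 0.665), and every OPC and neuron sum was above every sum of the other 6 types, the next by mean level being astrocytes at 4.64 to 31.3 CPM. Kcnk10 was higher in OPCs by 2.83 ± 0.20 (adjusted p = 3.03e-21) and in neurons by 2.72 ± 0.14 (adjusted p = 2.05e-28), and lower in oligodendrocytes by -1.70 ± 0.29. OPCs and the oligodendrocytes that derive from them stood at opposite ends of the order for Kcnk10. The lower call in microglia (-0.80 ± 0.30, adjusted p = 0.0172) was lost without male replicate 3 (-0.29, adjusted p = 0.497) or female replicate 4 (-0.67, adjusted p = 0.0616).

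Kcnk4 (TRAAK), the third mechanosensitive member, was at 9.37 ± 2.06 CPM in neurons (6.33, 9.33 and 12.4 in the lowest, median and highest library, 876 UMIs) and at or below a mean of 3.56 CPM in every other type. Fibroblasts held no Kcnk4 UMI in 8 libraries. The gene did not pass the filter, and in the fit with no filter it was higher in neurons by 3.33 ± 0.30 (adjusted p = 3.22e-21 by edgeR).

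The TASK pair differed in reach. Kcnk3 (TASK-1), an acid-sensitive leak channel, was at 13.7, 57.5 and 62.8 CPM in OPCs (lowest, median and highest of 9 libraries) and at 26.3, 29.6 and 37.4 CPM in neurons. Most OPC sums lay above all neuron sums, and OPCs exceeded neurons by 0.71 ± 0.23 on the log2 scale (adjusted p = 0.00786 by edgeR). Against the other types Kcnk3 was higher in OPCs by 2.42 ± 0.26 and in neurons by 1.61 ± 0.18, and lower in astrocytes by -1.26 ± 0.28 and oligodendrocytes by -0.95 ± 0.32. The astrocyte call was lost in the female libraries alone (-1.01, adjusted p = 0.0597), and the oligodendrocyte difference was not called within the female libraries (-0.70, adjusted p = 0.240) or within the male libraries (-0.90, adjusted p = 0.156). Kcnk9 (TASK-3), which forms mixed channels with Kcnk3, was at 6.33, 11.7 and 18.5 CPM in neurons and at a mean of 2.99 CPM or less elsewhere, apart from endothelial cells, where 7 UMIs gave 8.16 ± 9.10 CPM over 7 libraries. Without the filter Kcnk9 was higher in neurons by 3.26 ± 0.29 (adjusted p = 1.22e-21 by edgeR), and its endothelial value of 2.52 ± 0.79 (adjusted p = 0.0143) rested on those 7 UMIs.

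The THIK pair were both high in microglia and lowest in astrocytes, and differed in oligodendrocytes. Kcnk12 (THIK-2), a subunit that stays largely silent in expression systems, was at 31.8, 56.1 and 91.1 CPM in microglia, 22.0, 39.9 and 64.1 CPM in ependymal cells and 28.7, 38.6 and 50.6 CPM in neurons. These 3 types overlapped, and neither microglia (0.45 ± 0.25, adjusted p = 0.122) nor neurons (-0.01 ± 0.22, adjusted p = 0.962) differed from ependymal cells by edgeR. Against the other types Kcnk12 was higher in microglia by 2.36 ± 0.21, in ependymal cells by 1.85 ± 0.25 and in neurons by 1.83 ± 0.16, and lower in astrocytes by -2.33 ± 0.29 and oligodendrocytes by -1.68 ± 0.32. The oligodendrocyte call was lost in female libraries alone (-0.58, adjusted p = 0.332), and the OPC call (-1.22 ± 0.42, 12 UMIs) without male replicate 2 (-0.87, adjusted p = 0.117).

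Kcnk13 (THIK-1), the halothane-inhibited channel known as the main potassium leak of microglia, had the widest range of the set. Oligodendrocytes held 218, 326 and 582 CPM in the lowest, median and highest library from 2095 UMIs, and microglia 175, 241 and 454 CPM from 699 UMIs. All of these sums lay above the highest sum of any other type, which was 48.9 CPM in OPCs. Oligodendrocytes exceeded the mean of the other types by 4.90 ± 0.14 (adjusted p = 4.15e-45) and microglia by 4.503 ± 0.156 (adjusted p = 4.25e-39), both in 10 of 10 libraries by edgeR, and the difference between these types was 0.35 ± 0.14 (adjusted p = 0.0257), under the size needed for a call. Oligodendrocyte lineage cells were not alike, since OPCs held a mean of 22.8 ± 14.8 CPM. Astrocytes were lowest at 2.15 ± 2.26 CPM (59 UMIs in 5302 nuclei), and the lower calls in astrocytes (-2.72 ± 0.58), endothelial cells (-2.46 ± 0.73) and ependymal cells (-1.84 ± 0.54) had an adjusted p of 1 without female replicate 2, where their standard errors could not be estimated. The fibroblast value (-3.63 ± 0.90) rested on 1 UMI. Neurons, at 14.2, 23.1 and 36.7 CPM, were called higher by 0.56 ± 0.22 (adjusted p = 0.0204), and this call was lost with DESeq2 (0.23, adjusted p = 0.346) and without male replicate 1 (0.41, adjusted p = 0.113) or any one of 4 female replicates. With DESeq2's size factors in edgeR the median log2 fold change of all genes in neurons moved from 0.16 to -0.03, and Kcnk13 in neurons was then at 0.37 (adjusted p = 0.153).

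Nuclei of one type can carry free RNA of another. The summed level of 6 neuron markers in non-neuronal types was therefore expressed as a percentage of their sum in neurons, and ran from 3.1% in astrocytes to 13.4% in ependymal cells. Each neuronal K2P level was multiplied by this ratio for comparison. Kcnk13 in oligodendrocytes was 226 times and in microglia 118 times that product, Kcnk1 in astrocytes 85.1 times, Kcnk2 in astrocytes 47.5 times, Kcnk2 in fibroblasts 21.6 times, Kcnk12 in microglia 16.7 times, Kcnk3 in OPCs 12.8 times and Kcnk10 in OPCs 7.64 times. Kcnk10 in ependymal cells (0.794 times), fibroblasts (0.845), endothelial cells (0.987), oligodendrocytes (1.16) and microglia (1.24) was near it. Kcnk10 in these 5 types was thus close to what the summed neuron markers gave. So were other members in some types, such as Kcnk13 in fibroblasts (0.897) and endothelial cells (1.17), Kcnk12 in OPCs (1.28) and Kcnk4 in OPCs (1.07). The highest level of Kcnk1, Kcnk2, Kcnk3, Kcnk12 and Kcnk13 outside neurons lay above that product. Marker percentages varied between libraries, in OPCs from 4.37% to 48.1%. They also depended on the marker, since Meg3 (15850 CPM in neurons) and Snhg11 (9092 CPM) made up most of the sum. In astrocytes and oligodendrocytes each of the other markers kept a larger share of its neuron level than the sum did. Slc17a6, for one, was at 93.8 and 120 CPM there, against 572 CPM in neurons. A product from such a marker would be larger, and the multiples above smaller.

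Shares of nuclei with a UMI were compared at equal depth. After thinning each nucleus to 2000 UMIs, which kept 17571 of 20503 nuclei, Kcnk13 had a UMI in 38.2% ± 8.99 of oligodendrocytes (SD, n = 10) and 39.3% ± 8.46 of microglia, against 0.394% ± 0.461 of astrocytes, with median depths before thinning of 2759, 3013 and 3304 UMIs. Kcnk1 had a UMI in 19.0% ± 5.47 of astrocytes and 1.83% ± 2.502 of microglia. Kcnk10 had a UMI in 23.0% ± 4.84 of OPCs and 18.9% ± 1.77 of neurons, against 2.24% ± 1.63 of oligodendrocytes, with median depths of 4428, 11300 and 2759 UMIs. Kcnk2 was found in 25.2% ± 14.6 of ependymal cells and 23.1% ± 6.91 of OPCs, and Kcnk12 in 8.95% ± 3.48 of microglia and 5.76% ± 0.658 of neurons. Without thinning, the same shares were 46.1% and 43.7% for Kcnk13 in oligodendrocytes and microglia, 24.7% for Kcnk1 in astrocytes and 54.4% for Kcnk10 in neurons. Any member had a UMI in 42.6% ± 2.39 of thinned neurons and 85.2% ± 6.45 of neurons at full depth, where 60.4% of neurons held 2 or more different members and 12.5% held 4 or more. In oligodendrocytes at full depth 7.64% held 2 or more, and all 8 members occurred together in no type other than neurons. Full depth was far greater in neurons than in oligodendrocytes. After thinning, 8.57% of neurons and 4.09% of oligodendrocytes held 2 or more.

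The second question was how the members are spread over the neuron clusters. The authors numbered these 1 to 8, and 6 neuron marker genes marked them to different degrees. Neurons (3) was highest in Adarb2 (2083 CPM), Neurons (6) in Nwd2 (7026 CPM) together with Cadps2 (1294 CPM), and Neurons (4) in Npsr1 (116 CPM) with Cadps2 (1243 CPM) and C1ql3 (358 CPM). Neurons (1) and Neurons (2) carried C1ql3 (361 and 351 CPM), Neurons (2) with Npsr1 (76.7 CPM) as well, Neurons (5) was highest in Gad2 (58.7 CPM), and Neurons (7) and Neurons (8) held Adarb2 at 386 and 387 CPM. Of the 8 members 7 were tested (Kcnk4 being filtered) and gave 56 contrasts of a cluster against the mean of the other clusters, of which 17 were called higher (30.4%, against 10.9% over all genes) and 15 lower (26.8%, against 9.19%). The median absolute log2 fold change was 0.56 for the members and 0.19 over all genes. The clusters with the highest level differed between members of a subfamily.

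**Figure D2:**
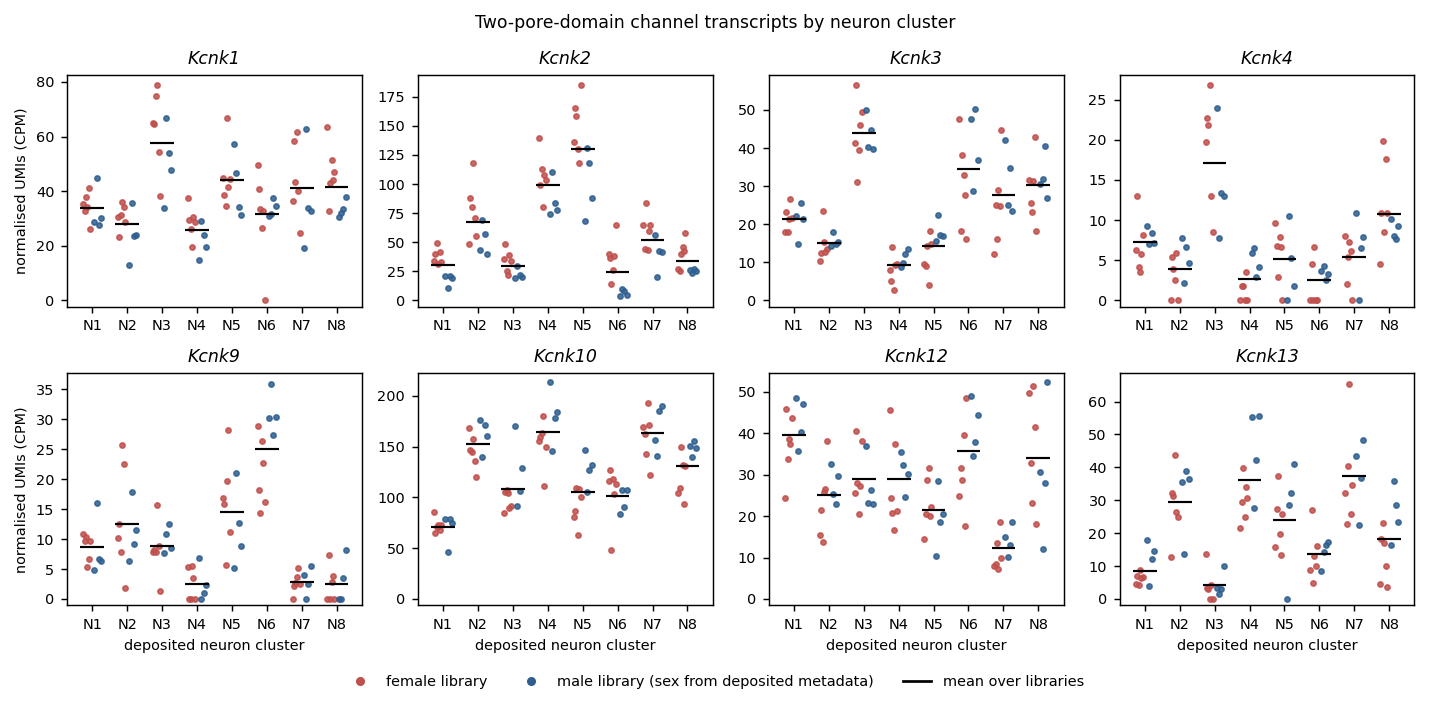
Level of each K2P gene in the 8 neuron clusters, in CPM (vertical axis), with 1 point per library coloured by set and a bar at the mean. Kcnk2 was highest in Neurons (5) and Neurons (4), Kcnk9 in Neurons (6), Kcnk3 in Neurons (3), and Kcnk13 in Neurons (7) and Neurons (4).

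Kcnk2 ranged from 67.9, 130 and 185 CPM in Neurons (5) (lowest, median and highest library) and 73.9, 101 and 140 CPM in Neurons (4) to 3.603, 20.3 and 64.6 CPM in Neurons (6). Neurons (6) stood apart at the bottom only in the male libraries, with a mean of 6.48 CPM. In the female libraries its mean was 36.5 CPM, beside 34.0 CPM in Neurons (3) and 38.3 CPM in Neurons (1). Every library of Neurons (5) was above every library of Neurons (6), and Neurons (5) exceeded Neurons (4) in 8 of 10 libraries. In edgeR's test Kcnk2 was higher in Neurons (5) by 1.68 ± 0.10 (adjusted p = 6.94e-26) and Neurons (4) by 1.26 ± 0.10, and lower in Neurons (6) by -1.66 ± 0.18, Neurons (3) by -0.78 ± 0.12 and Neurons (1) by -0.78 ± 0.10. The gain in Neurons (2) of 0.54 ± 0.10 fell below the size of a call in female libraries alone (0.40). Kcnk10, its relative, was far more even. It ran from 164 ± 27.4 CPM in Neurons (4) to 71.0 ± 10.7 CPM in Neurons (1), a 2.31-fold range of means against 5.30-fold for Kcnk2, and was lower in Neurons (1) by -0.87 ± 0.06 in 10 of 10 libraries. Its calls in Neurons (4) (0.51 ± 0.06) and Neurons (7) (0.53 ± 0.07) lay at the size threshold and passed below it without male replicate 1 (0.48) and without female replicate 5 (0.49).

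Kcnk9 was the member with the largest span over neurons. Neurons (6), the Nwd2 cluster, held 14.4, 26.9 and 35.9 CPM from 200 UMIs, and Neurons (4) held 0, 1.66 and 6.90 CPM from 28 UMIs. The groups did not overlap, and their means differed 10.2-fold. Kcnk9 was higher in Neurons (6) by 2.09 ± 0.19 (adjusted p = 2.47e-17) Neurons (5) by 1.01 ± 0.22 and Neurons (2) by 0.66 ± 0.18, and lower in Neurons (4) by -2.04 ± 0.29 and Neurons (7) by -1.17 ± 0.28. In the male libraries alone the calls in Neurons (5) (0.73, adjusted p = 0.0780) and Neurons (2) (0.54, adjusted p = 0.0570) were lost, and in the female libraries alone that in Neurons (7) (-1.28, adjusted p = 0.0576). The lower call in Neurons (8) (-0.84 ± 0.30, adjusted p = 0.0256) was lost without female replicate 4 (adjusted p = 0.0520) and without female replicate 5 or male replicate 1. Kcnk3, its TASK partner, was highest in Neurons (3) at 31.1, 43.0 and 56.6 CPM and Neurons (6) at 16.2, 34.8 and 50.3 CPM, and lowest in Neurons (4) at 2.77, 9.48 and 13.9 CPM. All Neurons (3) and Neurons (6) sums lay above all Neurons (4) sums. It was higher in Neurons (3) by 1.03 ± 0.09 (adjusted p = 1.85e-18) and Neurons (6) by 0.91 ± 0.11, and lower in Neurons (4) by -1.25 ± 0.13, Neurons (2) by -0.75 ± 0.11 and Neurons (5) by -0.68 ± 0.14 by edgeR. Its value of 0.50 ± 0.12 in Neurons (8) sat at the size threshold and fell below it without female replicate 1 (0.48), female replicate 4 (0.48), female replicate 5 (0.40) or male replicate 3 (0.45). Both TASK genes were therefore high in Neurons (6) and low in Neurons (4), and they parted in Neurons (5) and Neurons (2), where Kcnk9 was called higher and Kcnk3 lower.

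Kcnk13 in neurons was led by Neurons (7) at 22.6, 35.7 and 65.4 CPM and Neurons (4) at 21.5, 32.3 and 55.6 CPM, and was lowest in Neurons (3) at 0, 3.18 and 13.8 CPM. Every sum of the leading pair exceeded every sum of Neurons (3). Kcnk13 was higher in Neurons (4) by 1.23 ± 0.13 (adjusted p = 2.75e-14), Neurons (7) by 1.10 ± 0.14 and Neurons (2) by 0.81 ± 0.13, and lower in Neurons (3) by -2.18 ± 0.19 and Neurons (1) by -1.04 ± 0.13 in edgeR's test. The calls in Neurons (5) (0.66 ± 0.17) and Neurons (6) (-0.58 ± 0.21) were lost without the library block (adjusted p = 0.0701 and 0.141), the latter also without male replicate 1 (adjusted p = 0.0620). Because Kcnk13 is abundant in oligodendrocytes and microglia, the summed level of their markers is given for the same clusters. The 5 oligodendrocyte markers summed to a mean of 94.9 CPM in Neurons (7), 99.8 in Neurons (4), 77.7 in Neurons (3) and 98.2 in Neurons (1), against 24360 in oligodendrocytes on the cell type scale, and the 5 microglial markers to 230 CPM in Neurons (7), 172 in Neurons (4), 148 in Neurons (3) and 160 in Neurons (1). Over the 8 clusters these means ran from 77.7 to 123 CPM and from 148 to 230 CPM, and those of Kcnk13 from 4.20 to 37.3 CPM. The part of carried-over glial RNA in the Kcnk13 pattern was not tested.

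Kcnk12, Kcnk1 and Kcnk4 were spread differently again. Kcnk12 was highest in Neurons (1) (39.5 ± 7.30 CPM, 0.63 ± 0.08) and lowest in Neurons (7) (12.2 ± 4.16 CPM, -1.09 ± 0.14, below the other clusters in 10 of 10 libraries), where Kcnk13 was highest. Kcnk1 was highest in Neurons (3) (57.8 ± 14.9 CPM, 0.71 ± 0.08) and lowest in Neurons (4) (25.9 ± 6.67 CPM, -0.61 ± 0.10). Kcnk4, in the fit with no filter, was higher in Neurons (3) by 1.58 ± 0.15 (17.0 ± 6.75 CPM) and Neurons (8) by 0.87 ± 0.21, and lower in Neurons (6) by -1.53 ± 0.30 (18 UMIs) and Neurons (4) by -0.97 ± 0.22. Read by cluster, the Adarb2 cluster Neurons (3) was high in Kcnk1, Kcnk3 and Kcnk4 and low in Kcnk2 and Kcnk13, whereas Neurons (4), with Npsr1 and Cadps2, was high in Kcnk2, Kcnk10 and Kcnk13 and low in Kcnk1, Kcnk3 and Kcnk9.

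Because the deposited clusters carry numbers and not gene names, neurons with a UMI of each of 6 marker genes were also compared with the neurons without one, within libraries. This comparison was added after the files had been seen. Adarb2 was found in 38.3% of neurons, C1ql3 in 63.2%, Cadps2 in 34.1%, Nwd2 in 21.1%, Gad2 in 8.30% and Npsr1 in 7.42%. In oligodendrocytes, which should lack them, the shares were 17.2%, 17.99%, 13.1%, 5.93%, 1.62% and 0.812%, with a median depth of 2321 UMIs against 11160 in neurons, so that positive neurons were a loose class and many of them carried several markers. All 8 members were tested, and of 48 contrasts 7 were called higher (14.6%, against 5.49% over all genes) and 4 lower (8.33%, against 5.1%). The median absolute log2 fold change was 0.34 for the members and 0.14 over all genes.

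**Figure D3:**
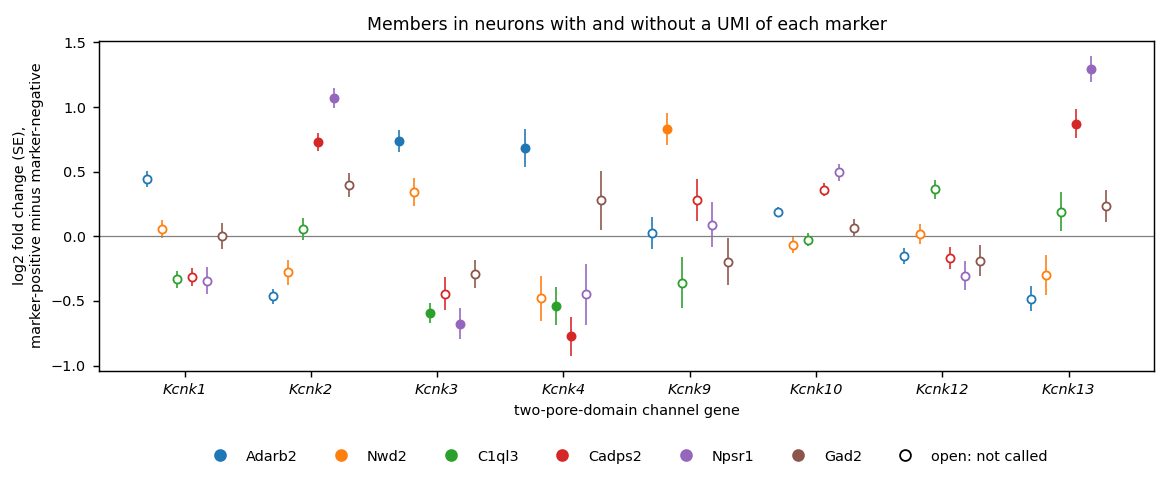
Log2 fold change of each K2P gene in neurons with a UMI of a marker gene against neurons without one (vertical axis, points with standard errors). The 6 markers are in separate colours, open points were not called, and a line marks 0. Kcnk13 and Kcnk2 were higher in Npsr1-positive and Cadps2-positive neurons, Kcnk3 and Kcnk4 in Adarb2-positive neurons and Kcnk9 in Nwd2-positive neurons.

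Npsr1-positive neurons, which bear the neuropeptide S receptor, held Kcnk13 at 41.8 ± 16.1 CPM against 16.7 ± 4.24 CPM in Npsr1-negative neurons, and Kcnk2 at 97.2 ± 20.8 against 49.1 ± 12.9 CPM. Both were higher in 10 of 10 libraries, by 1.29 ± 0.10 (adjusted p = 7.88e-13) and 1.07 ± 0.08 (adjusted p = 1.46e-13) in edgeR's test. The same pair rose in Cadps2-positive neurons, Kcnk13 by 0.87 ± 0.11 and Kcnk2 by 0.73 ± 0.07, and 68.5% of Npsr1-positive neurons were also Cadps2-positive, so that these are not independent classes. Kcnk3 fell in Npsr1-positive neurons (15.8 ± 4.92 against 25.1 ± 2.58 CPM, -0.67 ± 0.12), a call lost in female libraries alone (-0.54, adjusted p = 0.216), and in C1ql3-positive neurons (-0.59 ± 0.08). Adarb2-positive neurons held more Kcnk3 (32.4 ± 5.29 against 18.4 ± 2.78 CPM, 0.74 ± 0.08, 10 of 10 libraries) and more Kcnk4 (10.2 ± 3.47 against 5.38 ± 1.57 CPM, 0.68 ± 0.15). Kcnk4 was lower in Cadps2-positive neurons by -0.77 ± 0.15, and its lower value in C1ql3-positive neurons (-0.54 ± 0.15) was lost without female replicate 3 (-0.49), female replicate 4 (-0.47) or male replicate 1 (-0.49), and when positivity was called after thinning (-0.21, adjusted p = 0.331), with a median depth of 12321 UMIs in C1ql3-positive and 8753 in C1ql3-negative neurons. Kcnk9 was higher in Nwd2-positive neurons (14.8 ± 5.79 against 7.99 ± 2.36 CPM, 0.83 ± 0.13). No member was called in Gad2-positive neurons by edgeR (2 of 8 with an unadjusted p below 0.05), where the largest value was 0.40 ± 0.10 for Kcnk2 (adjusted p = 0.00821), and Kcnk1, Kcnk10 and Kcnk12 were called for no marker, although Kcnk10 in Npsr1-positive neurons (0.50 ± 0.07, 155 ± 27.5 against 111 ± 11.6 CPM) was just under the size threshold.

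The last comparison set the 6 female libraries against the 4 male libraries, with sums over all neurons and a call at an adjusted p below 0.05. Of the 8 members 1 was called (12.5%, against 15.2% over all genes), a share near the background. Kcnk2 in neurons was at 76.8, 83.4, 85.3, 67.5, 71.0 and 78.5 CPM in female replicates 1 to 6 and at 42.2, 58.6, 56.9 and 45.6 CPM in male replicates 1 to 4. These sums over all neurons did not overlap between the sets, and the difference was 0.63 ± 0.13 (adjusted p = 0.00349 by edgeR). By cluster, the sets were apart only in Neurons (1) and Neurons (6). Female and male means of Kcnk2 were 38.3 and 18.1 CPM in Neurons (1) and 36.5 and 6.48 CPM in Neurons (6). In the other clusters the sets overlapped, with the higher mean in the female libraries each time. Set differences within single clusters were not tested. With neuron clusters given equal weight, Kcnk2 was still called. For the other 7 members the sums over all neurons overlapped between the sets. Their differences ran from -0.53 ± 0.19 for Kcnk13 (adjusted p = 0.0909 by edgeR) to 0.32 ± 0.16 for Kcnk1 (adjusted p = 0.217). The share of all genes without overlap is not available, so the number of members that overlap has no background beside it. Male replicate 2 had a median mitochondrial share of 1.30%, like the female libraries. Without this library 4 members were called, namely Kcnk2, Kcnk1 (0.48), Kcnk10 (-0.28) and Kcnk13 (-0.68). The share called over all genes is not available for that fit, so this count has no background beside it. In the non-neuronal types 3 of 13 tests of members were called (10.2% of tests over all genes in those types).

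**Figure D4:**
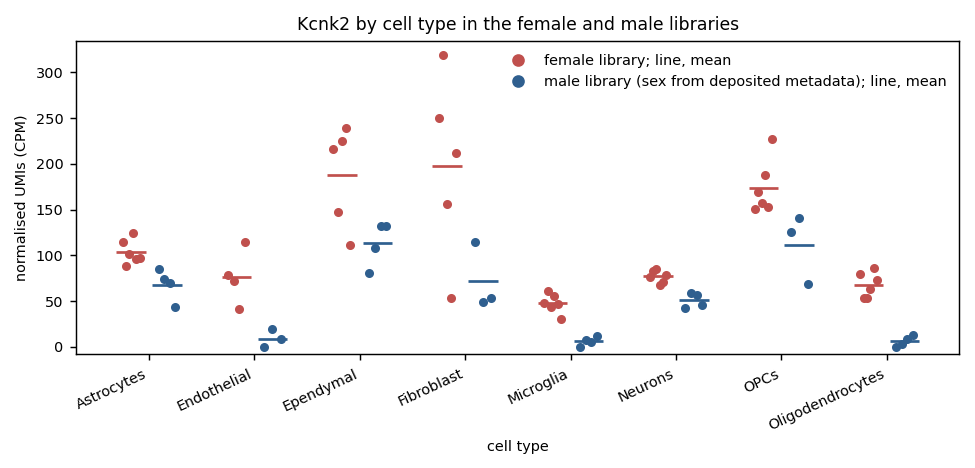
Level of Kcnk2 in each cell type (vertical axis, CPM), with 1 point per library and a bar at the mean of each set, female and male libraries side by side. In oligodendrocytes the female libraries sat between 53.1 and 86.0 CPM and the male libraries between 0 and 12.9 CPM, while in astrocytes and neurons the sets lay closer together.

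On the log2 scale, among the types in which Kcnk2 was tested, its difference was largest in oligodendrocytes. Female replicates 1 to 6 held 79.6, 53.1, 53.5, 63.0, 86.0 and 72.5 CPM and male replicates 1 to 4 held 0, 2.94, 8.35 and 12.9 CPM. The groups were far apart, and the difference was 3.08 ± 0.34 (adjusted p = 5.66e-06 by edgeR). Microglia, where Kcnk2 did not pass the filter of the set test, held 30.4 to 61.1 CPM in female and 0 to 12.1 CPM in male libraries, again with no overlap. In astrocytes the difference was 0.69 ± 0.19 (104 against 68.0 CPM, adjusted p = 0.0273), and Kcnk1 in astrocytes also differed by 0.69 ± 0.21 (139 against 90.7 CPM, adjusted p = 0.0386). Kcnk13 in oligodendrocytes held 218 to 348 CPM in female and 352 to 582 CPM in male libraries with no overlap, but its difference of -0.54 ± 0.19 missed the threshold (adjusted p = 0.0747). The set difference of Kcnk2 was larger in oligodendrocytes than in neurons by 2.26 ± 0.34 (adjusted p = 1.49e-05) and larger in microglia than in neurons by 1.83 ± 0.47 (adjusted p = 0.0293), and these were the called ones among 42 such tests of members (1.3% of tests over all genes). Kcnk2 means in female libraries ran from 47.6 CPM in microglia to 198 CPM in fibroblasts, and in male libraries from 6.04 CPM in oligodendrocytes to 113 CPM in ependymal cells. The parts of sex, deposit, depth and any difference in gene annotation cannot be told apart here.

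Related genes fixed as lists gave the setting. Of the other K2P genes only Kcnk6 (TWIK-2) passed the filter across cell types, through microglia, where it was at a mean of 67.8 CPM against at most 5.36 CPM elsewhere. Kcnk7 was at most at 7.62 CPM (ependymal cells). Kcnk5 (TASK-2) reached 53.1 CPM in fibroblasts and at most 6.49 CPM elsewhere, and Kcnk15, Kcnk16 and Kcnk18 did not exceed a mean of 1.06 CPM in any type. The sodium leak channel complex, which carries the depolarising counterpart of the potassium leak, had 4 symbols in the files (Nalcn, Unc79, Unc80 and Fam155a). All 4 were higher in neurons, led by Fam155a (3.36 ± 0.24), Unc80 (2.85 ± 0.13) and Unc79 (2.64 ± 0.13), and over all types 9 contrasts were higher and 13 lower of 32 (21.6% and 20.7% of contrasts over all genes). Among neuron clusters 3 were higher and 3 lower of 32, near the 10.9% and 9.19% over all genes, with Unc80 lower in Neurons (6) (-1.30 ± 0.06) and higher in Neurons (3) (1.17 ± 0.04), and Fam155a lower in Neurons (6) (-0.66 ± 0.05). Proteins that bind or regulate K2P channels gave 11 higher and 11 lower contrasts of 64 across cell types (21.6% and 20.7% over all genes). They were led by the phospholipase Pld2 in neurons (-2.29 ± 0.21) and astrocytes (2.29 ± 0.15) and S100a10 in ependymal cells (2.02 ± 0.22). None of 48 was called across neuron clusters by edgeR or DESeq2 (10.9% higher and 9.19% lower over all genes by edgeR). Of these, 22 and 21 had an unadjusted and 18 and 17 an adjusted p below 0.05, the latter under the fold change needed for a call. Receptors and effectors of the Gq pathway, which closes several K2P channels, gave 26 higher and 29 lower contrasts of 96 across cell types (21.6% and 20.7% over all genes). Among them in neurons were the orexin receptor Hcrtr2 (3.75 ± 0.21) and the serotonin receptor Htr2c (3.53 ± 0.18). Across neuron clusters 34 were higher and 29 lower of 104 (10.9% and 9.19% over all genes). Among them were the tachykinin receptor Tacr1 (5.71 ± 0.11) and Hcrtr2 (-4.19 ± 0.31) in Neurons (6).

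The genes with the pattern most like each member were found by Pearson's r of log2 levels over 15 classes (7 non-neuronal types and 8 neuron clusters), whose sums share libraries and depth, and are given as a description. Kcnk1 was followed by Nrcam (r = 0.93) and Caskin1 (0.93), Kcnk2 by Zfpm2 (0.82), Adam12 (0.82) and Dkk3 (0.81), and Kcnk10 by Gpr45 (0.97), Sox11 (0.96) and Ptprs (0.96). For Kcnk3 these were Kcnh5 (0.94), Trnp1 (0.94) and Dpp10 (0.92), for Kcnk4 Fam126b (0.96), Scai (0.94) and Vwc2l (0.93), and for Kcnk9 Arfgef1 (0.88), Psma1 (0.83) and Rbm10 (0.80). Kcnk12 was followed by Cds1 (0.89), Orai2 (0.88) and Adamts16 (0.88), and Kcnk13 by B3galt5 (0.88), Bin1 (0.86) and Snx30 (0.85). Among the members themselves the highest r was between Kcnk3 and Kcnk10 (0.78) and the lowest between Kcnk2 and Kcnk9 (-0.50). Of the subfamily partners, Kcnk4 and Kcnk10 (0.66) were among the closest pairs. Kcnk12 and Kcnk13 (0.17), Kcnk3 and Kcnk9 (0.39), Kcnk2 and Kcnk10 (0.01) and Kcnk2 and Kcnk4 (-0.31) were not.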

How the data were processed

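Single-nucleus libraries (10x Genomics 3′ chemistry) were made from punches of the mouse paraventricular thalamus and surrounding regions in 10 samples. The values are raw counts of UMIs per gene and nucleus that the authors deposited as 1 matrix for all libraries. Per the labels, Cell Ranger (version 6.1.1) and the mm10 build were used, while the study's methods name an earlier version, so the version behind the combined matrix is uncertain. The sources used here do not say whether reads in introns were counted. The deposited metadata also give the percent of mitochondrial UMIs per nucleus, computed by the authors, who removed nuclei above their limit. The authors clustered the nuclei with Seurat, removed low-quality and doublet clusters, and deposited the cluster names used here without further doublet calling. In the metadata 21 columns were not used.

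UMIs were summed per library and class, and a sum needed at least 10 nuclei to enter a fit. Tests were run in edgeR 4.0.16 (R 4.3.3) with glmQLFit and glmQLFTest, TMM factors, filterByExpr and Benjamini-Hochberg adjustment over all genes tested. Cell types, neuron clusters and marker-positive neurons were compared with the library as a block, and library sets without one. DESeq2 1.42.0 and the other settings are given in the closing section, and the script was tested on simulated data. Libraries are pools of several mice as far as the study's methods describe them, so that p-values measure the spread between pools. Counting intervals were not needed because all levels are given per library. Positions and coding sequences were read from GENCODE vM21 (GRCm38), and all 8 members matched by symbol.

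The 8 members, the 4 gene lists and the 6 marker genes were chosen with earlier results of these data known. Named genes were all members, the 3 most alike genes of each member, and in each list and comparison at most the 3 called genes with the largest absolute fold change, and some genes that this rule names are not reported here. The comparison of marker-positive neurons and the test of set differences between types were added after the files had been seen.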

Additional observations from a re-analysis of the deposited data

Results flagged for a closer look

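In 228 groups of 4 to 6 libraries (a member in a cell type or neuron cluster within 1 library set) the library farthest from its neighbours was compared with the range of the group, and 21 groups held a library beyond Dixon's 95% limit. Chance flags about 1 in 20 groups. In 10 of these 21 groups the outlying library held 1 UMI while the other libraries of its group held none. They were Kcnk10 in endothelial cells (15.8 CPM, female replicate 1), Kcnk3 (12.8 CPM, female replicate 6) and Kcnk9 (10.3 CPM, female replicate 5) in endothelial cells, Kcnk12 (9.64 CPM, female replicate 5) and Kcnk13 (19.9 CPM, female replicate 2) in fibroblasts, Kcnk4 in microglia (1.91 CPM, male replicate 3), OPCs (4.46 CPM, female replicate 2) and oligodendrocytes (4.46 CPM, female replicate 3), and Kcnk9 in ependymal cells (4.99 CPM in female replicate 4 and 4.01 CPM in male replicate 4).

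Another 4 of the 21 concerned male replicate 2 in Neurons (1), a sum of 93 nuclei. There Kcnk1 was at 44.7 CPM against 27.4 to 30.1 CPM in the other male libraries, Kcnk9 at 15.96 CPM against 4.85 to 6.72 CPM, Kcnk10 at 46.0 CPM against 74.2 to 78.6 CPM and Kcnk2 at 10.9 CPM against 19.6 to 21.2 CPM. The same library was low for Kcnk13 in Neurons (2), at 13.7 CPM against 35.5 to 38.9 CPM. The comparison of the library sets in neurons is given without this library in the report, and those in other cell types were not repeated without it.

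Among non-neuronal types, Kcnk13 in microglia of male replicate 1 was at 454 CPM (44 UMIs in 27 nuclei) against 229 to 241 CPM in the other male libraries. Female replicate 2 was high for Kcnk1 in oligodendrocytes (35.4 CPM, 8 UMIs) and for Kcnk10 in microglia (36.7 CPM, 6 UMIs). In neuron clusters, female replicate 4 was high for Kcnk1 in Neurons (5) at 66.9 CPM against 34.5 to 44.7 CPM, female replicate 3 was low for Kcnk10 in Neurons (6) at 47.9 CPM against 103 to 127 CPM, and female replicate 1 was high for Kcnk13 in Neurons (3) at 13.8 CPM (7 UMIs) against 0 to 4.18 CPM.

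The difference between the library sets itself differed between cell types for Kcnk2. It was larger in oligodendrocytes than in neurons by 2.26 and larger in microglia than in neurons by 1.83 on the log2 scale, by the interaction term in edgeR, in 2 of 42 such tests of members.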

How the results depend on the processing

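Across cell types 33 member contrasts were called, and 16 when only nuclei with at most 1% mitochondrial UMIs were kept, a setting that removes most nuclei of the female libraries. In that setting Kcnk12 in OPCs turned from -1.22 to 0.66 (adjusted p = 0.972), the only reversal, and the cause was not tested. Leaving out 1 library at a time gave 25 to 33 called contrasts across cell types, 31 to 34 across neuron clusters (32 with all libraries), 10 to 15 in marker-positive neurons (11 with all) and 1 to 4 members between library sets (1 with all). Shares over all genes are not available for the fits without 1 library. Unless stated, they are not given for the other settings of this section either, so those counts of members have no background beside them. Calling a neuron positive after thinning to 2000 UMIs gave 18 contrasts, and no filter on low counts gave 2 members between sets (Kcnk13 added). The share of neurons with a UMI of any member was 24.5% at 1000 UMIs and 85.2% without thinning, against 42.6%. Ranking by Spearman's rho kept 7 of the 24 most alike genes.

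Without the library block 32 contrasts across cell types, 30 across neuron clusters and 12 in marker-positive neurons were called. Replicate numbers did not pair the library sets, since the correlations of deviations over 4 numbers were -0.09, -0.19, -0.16 and 0.22, and with the replicate block 1 member was called between sets, while over all genes 664 were higher and 1048 lower in female libraries in place of 1035 and 1281. A restricted list kept genes with at least 20 UMIs in each library set and a ratio between the sets of at most 8. By this rule it leaves out the genes that differ most between the sets. With this list 271 genes were higher and 218 lower, and Kcnk2 was still the 1 called member. Of single called contrasts under all alternatives, 562 kept direction and call and 81 lost the call across cell types, 613 and 27 across neuron clusters, and 169 and 7 in marker-positive neurons. The merging of clusters was already that of the deposited names and gave no separate value. In the types with the fewest nuclei (fibroblasts, endothelial cells) most members rest on fewer than 30 UMIs, which limits what could be called.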

Other observations

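OPCs held the most different members per nucleus at equal depth. After thinning to 2000 UMIs an OPC nucleus held 0.716 ± 0.0995 different members on average (SD, n = 9 libraries), a microglial nucleus 0.587 ± 0.116, a neuron 0.525 ± 0.0421, an oligodendrocyte 0.516 ± 0.0835 and an astrocyte 0.366 ± 0.0594 (n = 10 each). The share of nuclei with 2 or more members was 15.0% in OPCs, 8.57% in neurons, 6.93% in microglia, 4.09% in oligodendrocytes and 3.16% in astrocytes. The low share in oligodendrocytes stood beside a high share with any member (46.2% ± 7.33), most of it from Kcnk13 alone. These are values for the clusters as the authors named them, with no test.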
